A study of Mus musculus with 5 samples.

Results

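The regions described here are 2990 DNase I hypersensitive sites of mouse MycER fibroblasts whose peak score ranked lower in a list labelled 4-OHT than in a vehicle list. They were chosen by the deposited peak scores themselves, out of 23940 sites that could be ranked and 52181 sites in all. A site could be ranked when each of the 3 distinct peak lists had exactly 1 peak there and every score was under 3100, where the scores reach a ceiling. Scores were turned into percentile ranks from 0 (weakest) to 1 (strongest) within each list, and a site is a member when its rank in the 4-OHT list is at least 0.15 below its rank in the vehicle list. The members are 12.5% of the rankable sites, which the plots call eligible. The rule used the vehicle and 4-OHT values, so those values describe the members and test nothing.

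The cells were 3T9 fibroblasts, an immortalised line from mouse embryos (E13.5). Per the labels they are of mixed strain, carry floxed c-Myc alleles in every group and were infected in culture with MycER, a Myc protein fused to a hormone-binding domain that responds to 4-hydroxytamoxifen (4-OHT). The labels do not name the promoter that drives MycER, do not say whether the floxed alleles had been deleted, and do not say whether the infected cells were a pool or 1 clone. The groups were ethanol vehicle at 0 h and 400 nM 4-OHT for 4 h, with 2 libraries each, and a sonicated genomic DNA input that was not analysed here. Nuclei were digested with 200 to 300 U/ml DNase I and fragments under 500 bp were sequenced. The vehicle list is EtOH 0 h replicate 1 and the 4-OHT list is 4-OHT 4 h replicate 2. Another list, deposited both as 4-OHT 4 h replicate 1 and as EtOH 0 h replicate 2 with all 44956 peaks identical, carries either label and is called the ambiguous list. Each treatment therefore has 1 list of undisputed label, there is no replicate, and treatment cannot be told apart from library. Positions are on mm9, with starts counted from 1. The study mapped hypersensitive sites in these cells, and the comparison here asks which shared sites stand lower in the list made after 4 h of 4-OHT.

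DNase I cuts most readily where nucleosomes have been displaced, at active promoters, enhancers and insulators, so a peak marks open regulatory DNA. Myc is a transcription factor that dimerises with Max, recognises E-box motifs and binds mainly at promoters and enhancers that are already open. A rank has no absolute scale: a site can rank lower because its own score fell or because other sites' scores rose.

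The lists differed in length, at 35149 vehicle, 44956 ambiguous and 47621 4-OHT peaks. Scores were lowest in the shortest list. Over all rankable sites the median vehicle score was 256, the median ambiguous score 478 and the median 4-OHT score 455, and the read depth behind these scores is unknown. The ranks of any pair of lists were similar across these sites, points that all come from the same 3 libraries. Spearman's rho was 0.888 for the vehicle and ambiguous lists, 0.882 for the vehicle and 4-OHT lists and 0.906 for the ambiguous and 4-OHT lists. No gene is named and no sequence is printed, because the peak positions are on mm9 and no reference of that build was used here. For the same reason the fibroblast identity of the cells was not checked against marker genes.

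The number of members was close to the number of sites that moved as far in the other direction, and close to the numbers between the other pairs of lists. Sites with a rank at least 0.15 higher in the 4-OHT list, called mirrored sites, numbered 3014 (12.6% of rankable sites). Between the vehicle and ambiguous lists, 2884 sites (12.0%) ranked at least 0.15 lower in the ambiguous list and 2852 (11.9%) at least 0.15 higher. Between the ambiguous and 4-OHT lists, 2452 sites (10.2%) ranked that much lower in the 4-OHT list and 2459 (10.3%) that much higher. These comparisons share lists with one another. Whichever label of the ambiguous list is right, 1 of the last 2 pairs consists of libraries of the same treatment, so a pair of like-treated lists differed by this rule at 10.2% or 12.0% of sites in the downward direction. The Wilson 95% interval of the members' share was 12.1% to 12.9%, which covers counting over sites and not the spread between libraries.

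**Figure D1:**
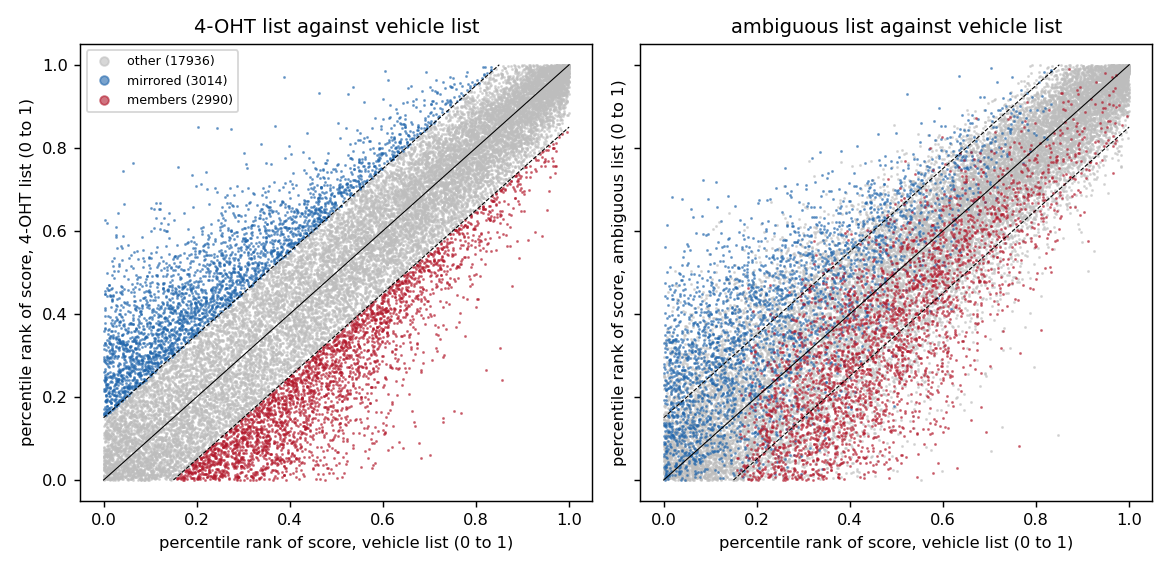
Percentile rank of the score (0 to 1) in the 4-OHT list (left) and in the ambiguous list (right) against the vehicle list, 1 point per rankable site; the solid line marks equal ranks and the dashed lines a difference of 0.15. The 2990 members lie below the lower dashed line on the left because the rule put them there, and on the right they spread from below that line to above the line of equal ranks.

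Members were mostly sites of middling strength in the vehicle list. Their vehicle score ran from 116.6 to 1996 with a median of 234, against 256 over all rankable sites. Their median 4-OHT score was 226, near the vehicle value, and their median ambiguous score was 306. Their median rank was 0.468 for vehicle, 0.332 for the ambiguous list and 0.213 for 4-OHT. When the sites were cut into 10 equal groups by vehicle rank, the weakest held 0 members by construction. Members were most frequent in group 4 (vehicle scores of 158 to 199), with 610 of 2394 sites or 25.5%. The strongest group held 50 of 2394 or 2.09%. By the 4-OHT rank, also part of the rule, they were most frequent in the weakest group, at 792 of 2394 sites or 33.1%. By the rank in the ambiguous list, itself not part of the rule, members made up 16.2% of the weakest group, between 18.3% and 19.9% of the next 4 groups, and 0.961% of the strongest. Mirrored sites had a similar profile, with 10.3% of the weakest group, between 15.6% and 20.8% of the next 4 and 0.835% of the strongest.

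A lower rank was often not a lower score. The 4-OHT score was below the vehicle score at 1902 of the 2990 members, or 63.6% (Wilson 95% interval 61.9% to 65.3%), and above it or equal at the others. Over all rankable sites it was below at 9.57%, and at the mirrored sites at 0 of 3014. The median ratio of the 4-OHT score to the vehicle score was 0.933 at members, 1.65 at all rankable sites and 3.06 at mirrored sites. The highest ratio of a member was 1.25. A 4-OHT score under 0.5 times the vehicle score occurred at 84 rankable sites, and all 84 were members (2.81% of them). These differences between the sets follow from the rule, which used both scores. The ambiguous list scored below the vehicle list at 28.4% of members and at 8.46% of rankable sites.

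Most rank drops were moderate. A drop of less than 0.20 was found at 1233 members (41.2%), a drop from 0.20 to under 0.30 at 1213 (40.6%), from 0.30 to under 0.40 at 426 (14.2%), and of 0.40 or more at 118 (3.95%). In the first of these classes the median scores were 232 in the vehicle list and 276 in the 4-OHT list, and the 4-OHT score was the lower one at 31.6% of sites. In the last class the medians were 311 and 150.3, and the 4-OHT score was lower at all 118. The ambiguous list ranked the same classes further from the vehicle list as the drop grew. Its median rank minus the vehicle rank was -0.0998, -0.128, -0.193 and -0.258 from the first class to the last. The median 4-OHT rank minus the ambiguous rank widened too, at -0.0744, -0.108, -0.137 and -0.214. Each of these differences shares a rank with the drop that cut the classes. Both trends are therefore partly built in and are a description.

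Next to the threshold, members and other sites had nearly the same values. The member nearest to it was chr13:21923858-21924211, where the vehicle score was 827, the ambiguous score 818 and the 4-OHT score 800.1. The next were chr16:10664986-10666415 and chr7:105670994-105673355, where the 4-OHT score was the higher one (160 against 144, and 423 against 368). Just outside were chr10:21504898-21506194, chr4:101028282-101030611 and chr6:5088083-5090458. Their 4-OHT scores were 539, 386 and 688 and their vehicle scores 506, 328 and 687.

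The 10 sites with the largest drops went from ranks of 0.643 to 0.856 in the vehicle list to ranks of 0.0520 to 0.264 in the 4-OHT list. All had a peak in the 4-OHT list because the rule required 1, so sites without a 4-OHT peak could not be members. Their vehicle scores lay between 397 and 875 and their 4-OHT scores between 126 and 257. The sites were picked for this gap, so the separation of these 2 lists is by construction. The largest drop was at chr10:121273786-121275264. Its vehicle score was 487, its ambiguous score 365 and its 4-OHT score 131, with ranks of 0.702, 0.3996 and 0.0594 in the same order of lists, so the ambiguous list sat near the middle. Scores of the further sites are given in that order of lists too: vehicle, ambiguous, 4-OHT.

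At chr17:13742995-13746218 the scores were 454, 252 and 126. The peak stayed broad, at 2926 bp for vehicle and 3174 bp for 4-OHT, so width and score went different ways. At chr18:37994637-37996417 the scores were 875, 855 and 241, and at chr1:135959219-135960748 they were 619.98, 650.04 and 193. Scores ran higher in the ambiguous list over all sites, so a like score there is a lower rank. In ranks the ambiguous list differed from the vehicle list by -0.177 and -0.166 at these sites, and the 4-OHT list by -0.616 and -0.607. The site at chr16:57390716-57392163 scored 448, 423 and 149, and that at chr2:173239006-173240323 scored 536, 551 and 181. There the ambiguous rank differed from the vehicle rank by -0.223 and -0.180, so at all 4 of these sites the ambiguous list also passed the threshold of -0.15, with the 4-OHT list lower still.

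At chr14:30256117-30257214 the scores were 588, 399.8 and 197, which placed the ambiguous list between the others. The other chromosome 14 site of the group, at 106562768 to 106563828, scored 534, 978 and 186. It was the isolated one, with 0 other sites within 50 kb, and its ranks of 0.728 in the vehicle list and 0.713 in the ambiguous list were close together. The last sites were at chr13:45560907-45562288 (397, 308 and 143) and at chrX:96734885-96736259 (760.3, 546 and 257). In ranks, the ambiguous list lay between the others at all 10 of these sites and nearer the vehicle list at 7 of them. The 4-OHT peak was narrower than the vehicle peak at 8 of the 10.

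**Figure D2:**
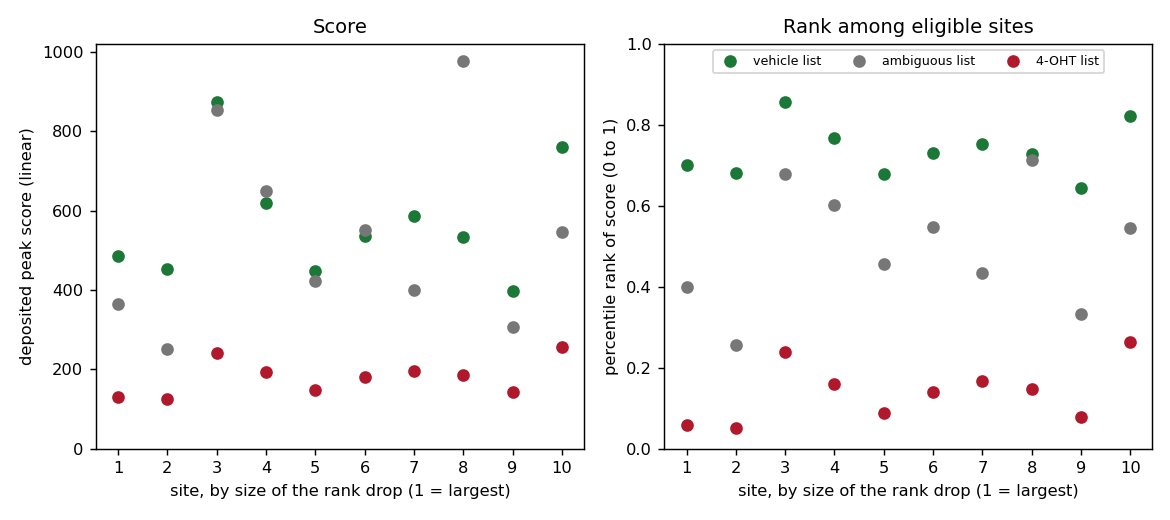
Deposited peak score (left, linear axis from 0) and percentile rank (right, 0 to 1) in each list at the 10 members with the largest rank drop, from chromosome 10 (site 1) to X (site 10) in the order of the text. The 4-OHT list is lowest at every site, with scores of 126 to 257, and the ambiguous list changes place from near the 4-OHT list (site 2) to above the vehicle score (site 8).

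The members with the highest vehicle scores stayed in the upper part of the 4-OHT ranking, at ranks of 0.740 to 0.838. The strongest was chr1:94026415-94027965, which scored 1996, 1912 and 1342. Behind it came chr15:7785931-7789723 (1679, 1743 and 1323) and chr11:120203877-120207165 (1610.04, 2122 and 1291). At these 3 sites the ranks fell by 0.158, 0.151 and 0.152. The chromosome 15 peak was also wider in the 4-OHT list, with 3746 bp against 1826 bp.

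The others of the first 10 scored between 1466 and 1528 in the vehicle list. They were chr9:106149302-106151008, chr10:60747468-60749930, chr1:88931962-88933787, chr14:48556384-48557889, chr3:108213335-108215501, chr8:123167682-123169450 and chr5:118828843-118832291. The 4-OHT score was the lower one at all 10, between 941 and 1342, while the ambiguous list scored above the vehicle list at 7. In ranks the ambiguous list lay between the others at 9 and above both at the chromosome 9 site.

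The ambiguous list decided which sites could be ranked, but its ranks were not used by the rule. They mostly lay between those of the other lists. Its rank lay between the 4-OHT and vehicle ranks at 1950 members, or 65.2% (63.5% to 66.9%), with 1038 nearer to the 4-OHT rank and 912 nearer to the vehicle rank. It lay below both at 594 members (19.9%) and above both at 446 (14.9%). At mirrored sites it lay between them at 63.3%, and over all rankable sites, where the gap is smaller, at 35.3%. Counting the sites outside the gap too, it was nearer to the 4-OHT rank at 54.6% of members, 57.4% of mirrored sites and 53.3% of all rankable sites. The shares were near one another in the 3 sets. The median rank difference from the vehicle list was -0.125 at members, 0.135 at mirrored sites and -0.000376 over all rankable sites. These differences share the vehicle rank that chose the members, so their sign is a description.

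Some members set 1 list apart. At 560 of them the ambiguous rank was no more than 0.02 below the vehicle rank, so only the 4-OHT list ranked them low. The condition contains the vehicle rank that chose the members, and was met by 57.3% of all rankable sites and 89.7% of mirrored sites. The 560 sites were 18.7% of members. The strongest of these by vehicle score were the chromosome 9 site named above (1528, 2786 and 1143), chr17:21668446-21670244 (1431, 2737 and 1076) and chr11:68199427-68201572 (1315, 2843 and 998). At 762 members the ambiguous rank was no more than 0.02 above the 4-OHT rank, so only the vehicle list ranked them high. This condition contains the 4-OHT rank, also part of the rule, and was met by 57.9% of all rankable sites and 82.0% of mirrored sites. The 762 sites were 25.5% of members. The strongest of these were chr14:22722215-22723829 (1464, 1542 and 1218), chr15:8755274-8757430 (1460.07, 1092 and 1169.8) and chr1:65435756-65436959 (1337, 1443 and 1149). If the ambiguous list is a vehicle library the first group has both vehicle lists above the 4-OHT list, and if it is a 4-OHT library the second group has both 4-OHT lists below the vehicle list.

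**Figure D3:**
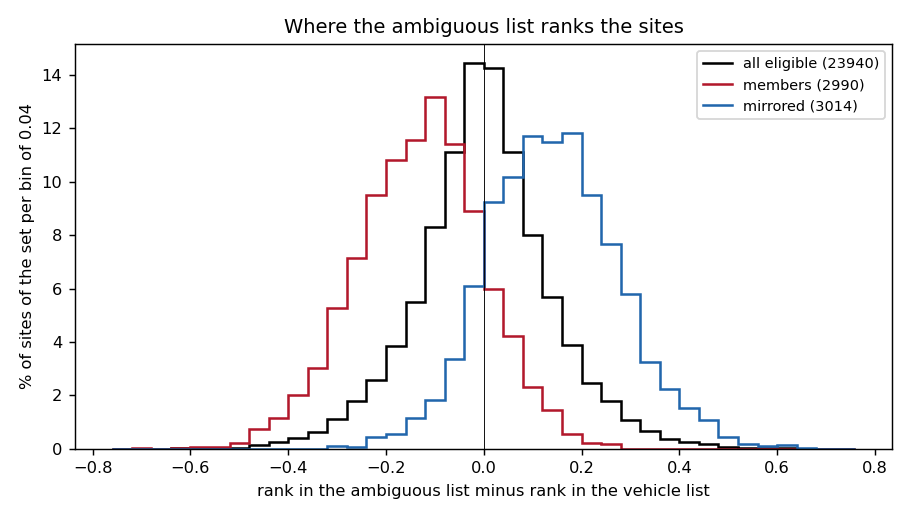
Rank in the ambiguous list minus rank in the vehicle list, as the percent of sites of each set in bins of 0.04, for members, mirrored sites and all rankable sites. Members centre on -0.125 and mirrored sites on 0.135, and the members' curve reaches past 0 because 14.9% of them have their highest rank in the ambiguous list.

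The peaks of members were shaped somewhat differently in the 2 lists of undisputed label, by a measure taken from the same libraries as the rule. The members' median width was 1093 bp for vehicle peaks, 1161 bp for ambiguous peaks and 1075 bp for 4-OHT peaks, against 1129 bp, 1258.5 bp and 1208 bp over all rankable sites. The 4-OHT peak was narrower than the vehicle peak at 52.4% of members (50.6% to 54.2%), at 32.6% of all rankable sites and at 17.3% of mirrored sites. It lay wholly inside the vehicle peak at 26.5% of members, and the vehicle peak lay wholly inside it at 23.3%. Over all rankable sites these shares were 15.2% and 39.3%. The ambiguous peak was narrower than the vehicle peak at 37.3% of members and 26.2% of all rankable sites.

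Position in the genome was not part of the rule, but neighbouring sites were counted from the same 3 lists as the ranks. The count includes sites found in only some of the lists. Within 50 kb, 67.8% of all rankable sites had a 4-OHT site absent from the vehicle list, and 11.8% had the reverse. By this count members were more frequent among isolated sites. Of the 1419 rankable sites with 0 other sites within 50 kb of their centre, 238 were members, or 16.8% (14.9% to 18.8%). Of the 8524 with 7 or more other sites in that window, 978 were members, or 11.5% (10.8% to 12.2%). With 1 other site the share was 13.4%, with 2 to 3 it was 12.4% and with 4 to 6 it was 12.6%. Mirrored sites ran the other way, from 8.81% (7.44% to 10.4%) of isolated sites to 1193 of the 8524 dense ones (13.3% to 14.7%). The ratio of the isolated to the dense share of members was 1.46 (95% interval of the ratio 1.28 to 1.66, for counting over sites).

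The other pairs of lists gave different shares by density, and these comparisons share lists with the members' own. Against vehicle ranks, the share of sites at least 0.15 lower in the ambiguous list went down from 21.0% of isolated sites (19.0% to 23.2%) to 8.32% of dense ones (7.75% to 8.92%). Between the ambiguous and 4-OHT lists the share ranking lower in the 4-OHT list was 9.58% of isolated sites and 11.5% of dense ones. The ratio of isolated to dense shares was also taken on sites merged and ranked anew from 2 lists, a different set of sites. With the ambiguous list put in place of the 4-OHT list it was 2.48, over 25416 rankable sites. With the ambiguous list in place of the vehicle list the direction turned, to 0.820, over 31594 rankable sites. The vehicle list thus ranked isolated sites highest, with a median rank of 0.496, followed by 0.475 for 4-OHT and 0.434 for the ambiguous list. For dense sites the order was turned, with 0.510 for vehicle, 0.522 for 4-OHT and 0.539 for the ambiguous list. The gap from the vehicle rank was thus wider for the ambiguous list, whose treatment is in dispute, than for the 4-OHT list at both kinds of site. The part of density in the members' rank differences was not tested.

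**Figure D4:**
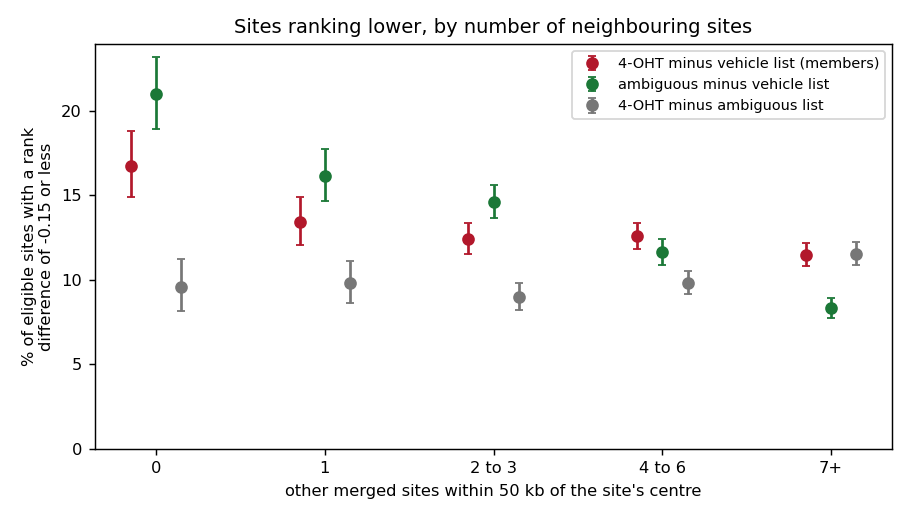
Percent of rankable sites with a rank difference of -0.15 or less, by the number of other merged sites within 50 kb, for the 4-OHT minus vehicle lists (the members), the ambiguous minus vehicle lists and the 4-OHT minus ambiguous lists; bars are Wilson 95% intervals over sites. The shares against the vehicle list fall from isolated to dense sites, from 16.8% to 11.5% and from 21.0% to 8.32%, and the share between the 4-OHT and ambiguous lists does not.

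The rank in the ambiguous list was then held roughly level by cutting the sites into 5 equal groups. This did not level the vehicle rank. In the weakest group, 40.5% of isolated and 23.8% of dense sites ranked at least 0.15 lower in the ambiguous than in the vehicle list. The grouping therefore cannot part density from the vehicle rank. Isolated sites held a higher share of members than dense sites in each group, but the intervals lay apart in the weakest group only. There, 24.6% of 395 isolated sites were members (20.6% to 29.0%) against 17.2% of 1334 dense sites (15.3% to 19.4%). In group 2 the shares were 23.6% (18.9% to 29.0%) and 18.8% (17.0% to 20.8%), and in group 3 they were 20.6% (15.8% to 26.4%) and 14.5% (13.0% to 16.1%). In group 4 the shares were 10.8% (7.41% to 15.4%) and 7.04% (5.96% to 8.28%), and in the strongest group 2.32% (7 of 302 sites) and 1.91%. Isolated members had median scores of 226 for vehicle, 255 for the ambiguous list and 214 for 4-OHT. Members in dense surroundings had 234, 343 and 232, with the widest gap in the ambiguous list.

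Neighbouring sites shared membership slightly more often than sites at large. The nearest rankable site was itself a member for 477 of the 2990 members, or 16.0% (14.7% to 17.3%), against 12.5% over all rankable sites and 331 of 3014 mirrored sites (9.92% to 12.1%). It was a mirrored site for 10.8% of members, 12.7% of all rankable sites and 454 of the 3014 mirrored sites (15.1%), so the nearest site was more often of the same set for mirrored sites too. By distance, the members' share showed no steady order up to 200 kb and was highest beyond it, where few members lay. Where the gap was under 1 kb the share was 14.3% (34 of 237, 10.5% to 19.4%), from 1 to 2 kb it was 11.5% (7.50% to 17.3%), from 5 to 10 kb it was 17.0% (13.9% to 20.5%), from 10 to 50 kb it was 16.1% (14.1% to 18.3%) and above 200 kb it was 27.1% (23 of 85, 18.8% to 37.3%). In the last class the share over all rankable sites was 15.6%. Peaks present in only 1 of the vehicle and 4-OHT lists come from the libraries of the rule, so their nearness is a description. A site of the vehicle list absent from the 4-OHT list lay within 50 kb of 13.7% of members (12.5% to 15.0%). It did so for 11.8% of all rankable sites and 11.8% of mirrored sites. Within the 5 groups by ambiguous rank, members were not above all rankable sites in group 3 (12.1% against 12.4%). They were above them in the other groups. A site of the 4-OHT list absent from the vehicle list lay within 50 kb of 65.1% of members (63.4% to 66.8%), 67.8% of all rankable sites and 72.8% of mirrored sites. The mean number of other sites of any kind in that window ran in the same order, at 5.25, 5.59 and 5.99.

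Runs of consecutive rankable sites that were all members were short. Of 2535 runs, 2160 held 1 member, 311 held 2, 50 held 3, 13 held 4 and 1 held 6. The run of 6 spanned 63.3 kb on chromosome 1, from 135935467 to 135998796, and included chr1:135959219-135960748, one of the 10 largest drops. Its vehicle scores in genome order were 421, 179.6, 570.4, 619.98, 1464 and 162, and its 4-OHT scores were 295, 199, 465, 193, 1168 and 145. The ambiguous scores were 452, 274, 989.98, 650.04, 2410 and 176, above the vehicle score at each site. In ranks the ambiguous list lay between the others at all 6 and nearer the vehicle list at 4.

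The other runs named were the first in genome order of those with 4 members. One spanned 1212 kb of chromosome 1, from 195275282 to 196487293, with vehicle scores of 651, 148, 321 and 336 and 4-OHT scores of 387, 168, 259 and 345. Its 4-OHT score was lower than the vehicle score at 2 of the 4 sites. The other lay on chromosome 2 from 26932878 to 27092030, with vehicle scores of 143, 201, 507 and 209 and 4-OHT scores of 147, 202, 423 and 244. Here the 4-OHT score was lower at 1 of the 4, and the ambiguous rank lay between the others at 1.

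Members lay on all 19 autosomes and X, at shares from 10.4% to 16.2% of each chromosome's rankable sites. The highest were chromosome 14 with 142 of 878 sites, 16.2% (13.9% to 18.8%), and chromosome 15 with 190 of 1222, 15.5% (13.6% to 17.7%). The lowest were chromosome 5 with 159 of 1531, 10.4% (8.96% to 12.0%), chromosome 9 with 10.5% and chromosome 11 with 197 of 1866, 10.6% (9.24% to 12.0%). Chromosome X held 49 members of 417 sites, 11.8%. Mirrored sites were most frequent on chromosome 10 with 15.5%, chromosome 5 with 15.4% and chromosome 11 with 15.3%, and chromosome 15 had 9.66%. Members outnumbered mirrored sites 1.61 to 1 on chromosome 15 and 1.38 to 1 on chromosome 14, and numbered 0.674 for each mirrored site on chromosome 5.

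On chromosomes 14 and 15 the ambiguous list against the vehicle list also gave higher shares than the 12.0% of all rankable sites, and the comparisons share the vehicle list. On chromosome 10, where members were 10.9%, it gave 12.9%. On chromosome 14 the share ranking at least 0.15 lower in the ambiguous than in the vehicle list was 15.3% (13.0% to 17.8%), and on chromosome 15 it was 14.7% (12.9% to 16.8%). Between the ambiguous and 4-OHT lists the share ranking lower in the 4-OHT list was 10.8% on both, near the 10.2% of all rankable sites. With the ambiguous list in place of the vehicle list, the share of chromosome 14 relative to all sites went from 1.29 to 1.02, and that of chromosome 11 turned from 0.845 to 1.04. With scores per bp of peak width, the share of chromosome 15 relative to all sites went from 1.24 to 1.07 (95% interval 0.941 to 1.21). The share also differed by density within chromosomes, though not within all of them. On chromosome 15 the members' share was 30.4% of 56 isolated sites (19.9% to 43.3%), 17.7% of 532 sites with 1 to 6 others in the window and 12.5% of 634 dense sites. On chromosome 14 it was 28.3% of 60 isolated sites (18.5% to 40.8%) and 12.1% of 224 dense ones. Chromosome 19, with 12.7% members in all, had 31.25% of 32 isolated and 11.6% of 388 dense sites. Chromosome 11 had 18.2% of 55 (10.2% to 30.3%) and 9.84% of 884 (8.05% to 12.0%), so its intervals overlapped. Chromosome 1 had no such order, with 11.8% of 119 isolated and 14.3% of 357 dense sites. Neither had X, with 10.6% of 104 isolated and 15.0% of 60 dense sites. Isolated and dense shares were nearly equal on chromosome 12 (13.0% and 13.4%) and chromosome 17 (11.5% and 11.4%). Across the 20 chromosomes the number of merged sites per Mb went with the members' share at a Pearson r of -0.237 and a Spearman rho of -0.385, points that share all 3 libraries.

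**Figure D5:**
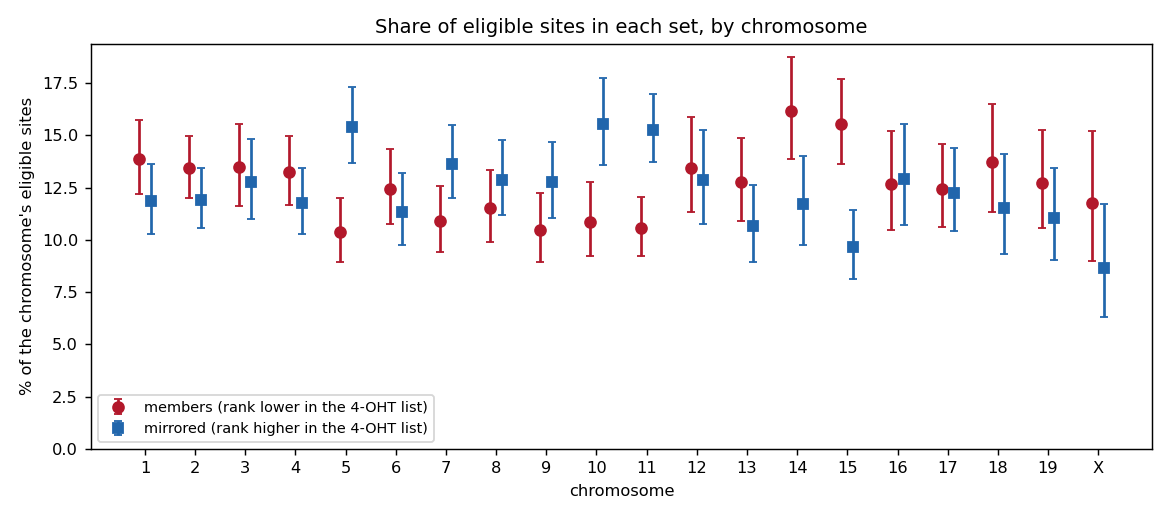
Percent of each chromosome's rankable sites that are members (circles) or mirrored sites (squares), with Wilson 95% intervals over sites. Members reach 16.2% on chromosome 14 and 15.5% on chromosome 15, and mirrored sites exceed members on chromosomes 5, 7, 8, 9, 10, 11 and 16.

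In windows of 5 Mb with at least 30 rankable sites, members took a median of 12.5% of the sites. The middle 90% of the 318 windows ran from 4.99% to 22.3%, and each window held at least 1 member. The windows with the highest and the lowest share, named after their values had been seen, were neighbours on chromosome 10. From 120 to 125 Mb, 14 of 47 sites were members (29.8%, 18.7% to 44.0%) and 4 were mirrored, and this window contains the site with the largest drop. From 125 to 130 Mb, 1 of 75 sites was a member (1.33%, 0.236% to 7.17%) and 16 were mirrored. In the first window 8 sites (17.0%) ranked at least 0.15 lower in the ambiguous than in the vehicle list. There, 11 sites (23.4%) ranked as much lower in the 4-OHT than in the ambiguous list. In the second window 7 sites (9.33%) did so in each of these comparisons. Over all rankable sites the shares were 12.0% and 10.2%.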

How the data were processed

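DNase-seq peak lists were deposited for 2 vehicle and 2 4-OHT libraries. The 3 distinct lists among them were used. Each deposited peak carries a score, taken here as the authors' caller wrote it. Per the submitters' processing notes, the build is mm9 and the tools include MACS 1.4.1, SAMtools and BWA 0.6.2. No source used here states how the score is scaled; it runs from 80 to 3233.06. Libraries were not brought to a common depth here and reads were not used, so the precision of single scores is unknown.

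Peaks overlapping by at least 1 bp were merged. Scores were ranked with mean ranks for ties. Printed starts count from 1. The merge was checked against bedtools and the rule was tested on simulated data. The labels do not say whether libraries of a group came from separate cultures. With 1 list per undisputed label no test between treatments was made. Intervals are Wilson 95% intervals, or 95% intervals of a ratio of shares, and cover counting error over sites only; neighbouring sites are not independent. Python 3.11.15, numpy 2.4.6, pandas 2.3.3, scipy 1.17.1 and matplotlib 3.10.9 were used.

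The members, and the rules for what is named, were chosen with earlier results of these data known. Named were the 10 largest drops, the 10 highest vehicle scores, the 3 strongest members with the ambiguous rank near either other rank (0.02), the 3 sites on each side of the threshold and the 3 longest runs, ties in genome order. Planned gene positions, gene lists, cell type markers and motifs need an mm9 reference and were not run. Alternatives changed the rank threshold, the score limits, the merging, the ranking measure, the list lengths, the chromosomes and the lists used.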

Additional observations from a re-analysis of the deposited data

How the results depend on the processing

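With 1 list per treatment no setting gives a replicate check. A threshold of -0.10 gave 4878 members and 4860 mirrored sites, and -0.20 gave 1757 and 1823, by construction. The median ambiguous minus vehicle rank of members was then -0.103 and -0.153, and the share with the ambiguous rank between the others 57.0% and 71.6%. Without an upper limit on scores these were -0.119 and 70.2%, and with scores per bp of width -0.140 and 59.8%. Equal list length gave a share of 63.4%. The ratio of the share of members to that of all rankable sites with a member as nearest site was 1.28, and 1.16 at -0.10, 1.41 without the limit, 1.42 with scores of at least 100 and 1.12 with scores per bp. Leaving out the 4-OHT list (ambiguous against vehicle) or the vehicle list (4-OHT against ambiguous), this ratio was 1.19 and 1.07. In both settings the sites were merged and ranked anew from the 2 lists left. The isolated to dense ratio of 1.46 was then 2.48 and 0.820, so without EtOH 0 h replicate 1 it turned. For chromosome 11 the ratio to all sites was 0.845, and leaving out either list gave 0.775 to 1.04, the turned value being without the vehicle list; for chromosome 14 it then went from 1.29 to 1.02. With scores per bp, chromosome 15 went from 1.24 to 1.07. The cause was not tested. Windows of 25 and 100 kb, chosen after seeing the data, gave isolated to dense ratios of at least 1.35. The alternatives on gene starts and motif windows were not run. No paired analysis was possible because 1 list stands under both labels. Depth is unknown.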
